A study of Mus musculus with 9 samples.

Results

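The 10 genes described here encode the testosterone synthesis pathway of the Leydig cell, the steroid-producing cell between the seminiferous tubules, and part of its control. They were chosen by name as Star, Cyp11a1, Cyp17a1, Hsd3b1, Hsd3b6, Hsd17b3, Lhcgr, Nr5a1, Nr0b1 and Fdx1, and all 10 were found among the 38674 genes of the deposited table. The study measured testis RNA of mice with a CRISPR deletion in Pfn3, which encodes a germ cell member of a family of actin-binding proteins. Testis tissue, freed of its tunica albuginea, came from male C57BL/6 animals of 3 genotypes, with 3 samples each: Pfn3+/+ (WT), Pfn3+/- (Het) and Pfn3-/- (KO). Het animals carry 1 deleted and 1 intact copy of Pfn3, and KO animals carry no intact copy. The animals were sexually mature males of 2 to 6 months. Several deletion lines exist, and which of them was sequenced is not given in the sources used here. The labels do not say in words that each sample is a separate animal, so the p-values measure the spread between these samples.

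Luteinizing hormone from the pituitary binds its receptor LHCGR on Leydig cells and raises cyclic AMP, which induces STAR, the protein that brings cholesterol to the inner mitochondrial membrane. There CYP11A1, fed with electrons by ferredoxin (FDX1), cuts the side chain of cholesterol to give pregnenolone, and 3β-hydroxysteroid dehydrogenases (HSD3B1, HSD3B6), CYP17A1 and HSD17B3 carry it on to testosterone. NR5A1 (SF-1) activates most of these genes, and NR0B1 (DAX-1) represses NR5A1-dependent transcription.

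The libraries were QuantSeq 3′ libraries, in which reads come from the 3′ end of polyadenylated transcripts. Values are normalized counts: the count of each gene was divided by the size factor of its sample, and not by transcript length. Counts on genes ranged from 3375546 to 4287335 per sample, and 3 counts, taken as the floor for detection, were worth 2.58 to 3.71 normalized counts. Pfn3 itself stood at 373 to 592 normalized counts in WT, 136 to 339 in Het and 74.7 to 279 in KO samples, and 3′ reads lying outside a deleted stretch do not check the deletion. One sample of each genotype stood apart from the other two: WT replicate 1, Het replicate 1 and KO replicate 2. By the share of genes that differed by more than 2 Poisson SD, WT replicate 1 differed from its group in 69.5% and 70.3%, Het replicate 1 in 54.0% and 62.2%, and KO replicate 2 in 55.7% and 60.8%. The remaining pair of each genotype differed in 36.0% to 40.6%. Ldhc, the germ cell lactate dehydrogenase, was at 800 normalized counts in WT replicate 1 and 1925 in Het replicate 1, and between 25591 and 36443 in the other 7 samples. The other 7 spermatocyte markers summed to 10604 and 11000 in those samples and to 8019 to 11005 in the others.

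Of the 10 genes, 9 were tested in KO against WT and in KO against Het, and 8 in Het against WT. The test was passed by 1 gene in 1 comparison, Nr0b1 in KO against Het, where 0.0558% of all genes tested passed. Nr0b1, the repressor, was not counted in any Het sample and was counted in every KO sample. It could be tested there only through its KO values, and the call did not hold under every method. The 7 genes of cholesterol transport and conversion were counted in all 9 samples, and their differences between genotypes did not pass the test. The plot of the level of each gene in each testis shows all values.

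**Figure D1:**
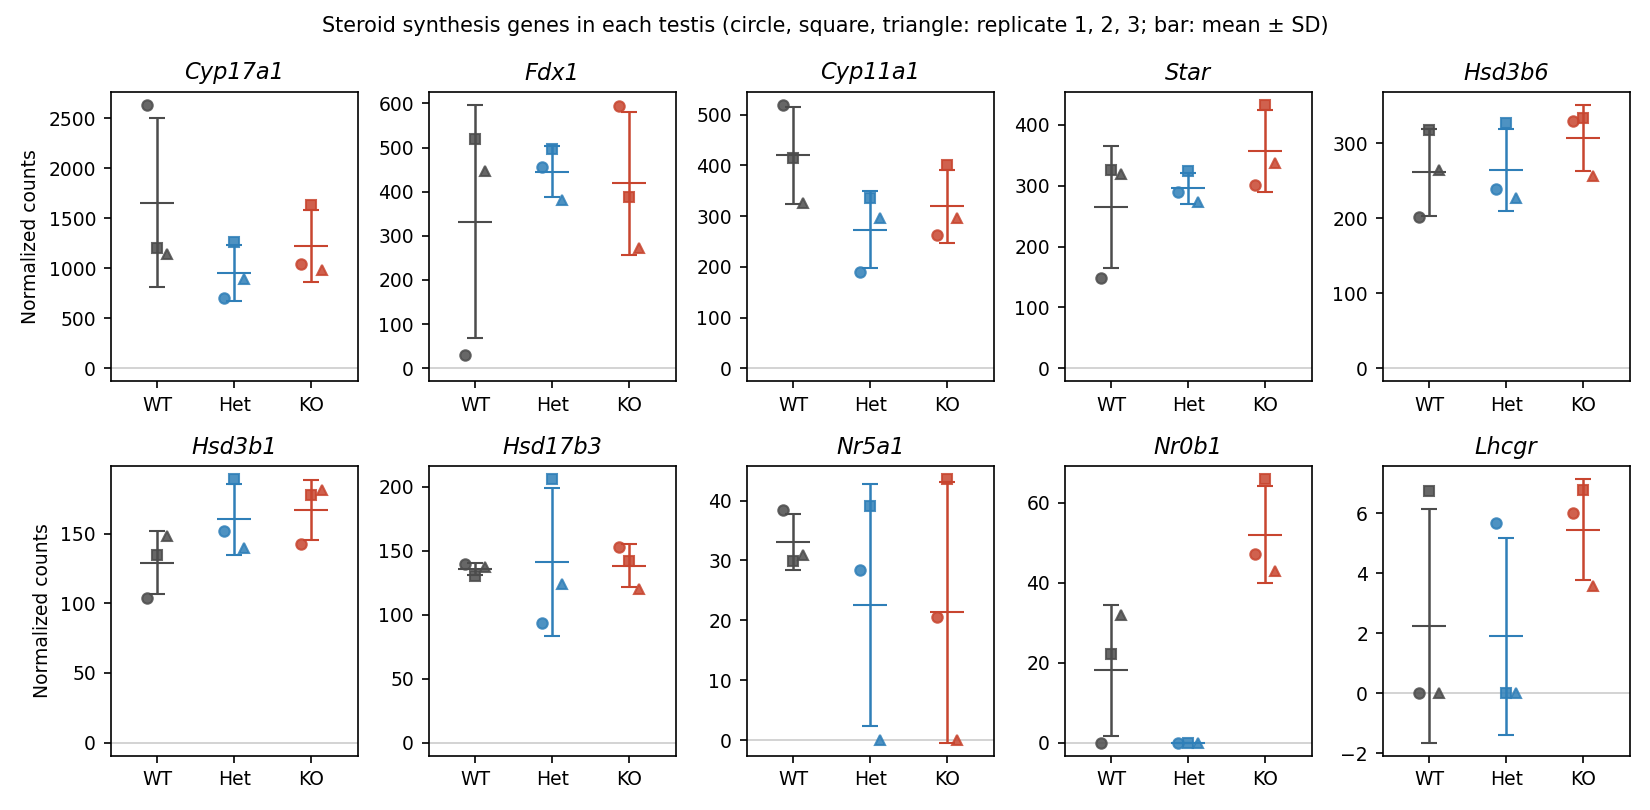
Normalized counts (vertical axes, linear) of each of the 10 genes in the 3 WT, 3 Het and 3 KO testes. Points are samples with a marker for each replicate number, bars are mean ± SD (n = 3), and Nr0b1 is at 0 in all Het samples and between 42.9 and 65.8 in the KO samples.

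Sequence upstream of the start sites is shown because the members share known regulators. RefSeq (GRCm38.p6) upstream sequences were found for 7 of the 10 genes, and Star, Cyp17a1 and Nr5a1 had no entry. Each window is the 250 bases before the start site, written 5′ to 3′ on the strand of the gene, with motif letters in capitals. AGGTCA is the core of the site bound by NR5A1, AGATAA and TGATAA are sites of GATA factors, and TATAAA is a TATA box. Nr0b1 (chrX:86191525-86191774, plus strand) is shown as the gene called in KO against Het, a call that did not hold under every method. Cyp11a1 (chr9:58014702-58014951, plus strand) is shown as the first enzyme. The isozymes Hsd3b6 (chr3:98814444-98814693, minus strand) and Hsd3b1 (chr3:98859795-98860044, minus strand) are shown as neighbours that act at the same step.
Nr0b1: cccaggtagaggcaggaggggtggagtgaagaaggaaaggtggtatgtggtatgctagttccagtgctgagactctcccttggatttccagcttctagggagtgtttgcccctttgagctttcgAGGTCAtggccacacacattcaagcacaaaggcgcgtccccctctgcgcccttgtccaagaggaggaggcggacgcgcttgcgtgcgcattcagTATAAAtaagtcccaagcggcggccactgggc
Cyp11a1: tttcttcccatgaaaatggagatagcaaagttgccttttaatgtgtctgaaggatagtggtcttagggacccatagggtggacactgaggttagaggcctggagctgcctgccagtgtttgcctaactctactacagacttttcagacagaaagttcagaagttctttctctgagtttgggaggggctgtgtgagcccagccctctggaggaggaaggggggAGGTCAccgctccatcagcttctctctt
Hsd3b6: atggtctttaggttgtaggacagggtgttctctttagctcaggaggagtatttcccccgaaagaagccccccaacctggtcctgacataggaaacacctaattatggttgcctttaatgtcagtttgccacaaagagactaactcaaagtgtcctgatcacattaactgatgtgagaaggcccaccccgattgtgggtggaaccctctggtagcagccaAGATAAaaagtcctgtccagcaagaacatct
Hsd3b1: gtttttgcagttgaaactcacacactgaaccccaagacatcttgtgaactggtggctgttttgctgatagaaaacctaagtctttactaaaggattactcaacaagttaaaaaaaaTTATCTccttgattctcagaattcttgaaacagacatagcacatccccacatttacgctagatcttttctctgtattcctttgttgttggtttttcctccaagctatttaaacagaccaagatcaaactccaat

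In the Nr0b1 window AGGTCA began 126 bases before the start, and TATAAA began 32 bases before it. In the Cyp11a1 window shown, AGGTCA began 28 bases before the start. That window lies inside the span of the gene given below. Another Cyp11a1 window (chr9:57997774-57998023, plus strand) lies before that span and held none of the motifs searched. Lhcgr also held AGGTCA, 122 bases before its start. AGGTCA, searched on both strands without regard to overlap with other motifs, was present in 14.0% of all 32851 upstream windows of this length, and TATAAA in 12.4%. The Hsd3b6 window held AGATAA 31 bases before the start, and the Hsd3b1 window held it on the opposite strand, as TTATCT, 134 bases before the start. AGATAA was present in 9.99% of all windows. Fdx1 held TGATAA 192 bases before its start, a motif of 7.94% of windows, and the cyclic AMP response element TGACGTCA, in 1.55% of windows, was in none of the members' windows. These matches describe letters in these windows and do not show binding.

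Star (chromosome 8 from 25806555 to 25815982, plus strand, GRCm38, like all coordinates of genes given here) delivers cholesterol to the mitochondria. It was measured at 149, 326 and 319.6 normalized counts in WT, 290.1, 324 and 273 in Het and 301, 432 and 338 in KO samples. WT replicate 1 was the lowest of the 9 samples and KO replicate 2 the highest, and the genotypes overlapped. The KO against WT difference was 0.50 ± 0.36 (SE, n = 3 each) on the log2(value + 1) scale, with adjusted p = 0.648 by limma. Without WT replicate 1 it was 0.13.

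Cyp11a1 (chromosome 9 from 58006411 to 58027023, plus strand) makes pregnenolone. It was measured at 519, 414 and 326 normalized counts in WT, 189, 335 and 296 in Het and 262, 401 and 296 in KO samples. The WT samples lay towards the upper end, yet 1 Het and 1 KO sample were above the lowest WT sample. The Het against WT difference was -0.63 ± 0.30 (SE, log2), with unadjusted p = 0.0787 and adjusted p = 0.779 by limma. That was the lowest unadjusted p of the 8 members tested in that comparison. The KO against WT difference was -0.39 ± 0.26, with adjusted p = 0.643 by limma, and -0.23 without WT replicate 1.

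Fdx1 (chromosome 9 from 51943306 to 51963556, minus strand) supplies CYP11A1 with electrons and also serves other mitochondrial enzymes in many cell types. It was measured at 31.0, 520.0 and 446 normalized counts in WT, 456, 497 and 382 in Het and 594, 388 and 273 in KO samples. WT replicate 1 held 25 counts and lay far below the other 8 samples, of which the lowest was 273. With 1 added to each value, the highest Fdx1 value was 18.6 times the lowest, against a median of 2.32 over 5851 genes that averaged 100 normalized counts or more. Of those genes, 11.8% had a highest value at least 10 times the lowest. The KO against WT difference was 1.03 ± 1.09 (SE, log2; adjusted p = 0.71 by limma) and became -0.27 without WT replicate 1. Het against WT was 1.18 ± 1.07, and -0.12 without that sample.

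Hsd3b1 (chromosome 3 from 98852194 to 98859794, minus strand) and Hsd3b6 (chromosome 3 from 98805504 to 98814443, minus strand) encode isozymes of 3β-hydroxysteroid dehydrogenase. Hsd3b1 was measured at 104, 135 and 149 normalized counts in WT, 152, 189 and 139.7 in Het and 143, 178 and 181 in KO samples. Hsd3b6 was measured at 202, 317 and 264 normalized counts in WT, 238, 327 and 226 in Het and 329.8, 334 and 256 in KO samples. These were the steadiest of the 10 genes, with a highest value 1.81 times the lowest for Hsd3b1 and 1.65 times for Hsd3b6 (1 added to each), and the genotypes overlapped for both. For Hsd3b1 the KO against WT difference was 0.38 ± 0.23 (SE, log2), with adjusted p = 0.637 by limma. For Hsd3b6 the same comparison gave 0.24 ± 0.24, with adjusted p = 0.698. Without WT replicate 1 these were 0.23 for Hsd3b1 and 0.0723 for Hsd3b6.

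Hsd3b6 was above Hsd3b1 in 9 of 9 samples. The ratio of Hsd3b6 to Hsd3b1, each plus 1, had a geometric mean of 1.999 in WT, 1.63 in Het and 1.82 in KO samples. The 3 Het ratios lay below the 3 WT ratios, and the KO ratios spanned both. The Het against WT difference in log2 ratio was -0.29, with p = 0.1 in a two-sided exact permutation test (adjusted over 3 comparisons, p = 0.3), and 0.1 is the smallest p that 3 against 3 samples allow. KO against WT differed by -0.13 and KO against Het by 0.16, each with p = 0.6 in the same exact test (adjusted p = 0.6). Of 50-base stretches in Hsd3b6 transcripts, 15.6% also occur in other genes, mostly in Hsd3b2, and the share was 24.6% in the last 500 bases. Counts could therefore be split between these copies. Hsd3b2 had a row of its own, at 1.24 to 10.2 normalized counts, and in Hsd3b1 4.86% of stretches were shared and 0 of those in the last 500 bases.

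Cyp17a1 (chromosome 19 from 46667165 to 46673172, minus strand), the 17α-hydroxylase and 17,20-lyase of androgen synthesis, had the highest count of the 10 genes. It was measured at 2631, 1202 and 1138 normalized counts in WT, 706, 1261 and 894 in Het and 1044, 1634 and 979 in KO samples. WT replicate 1, lowest for Star and Fdx1, was highest for Cyp17a1 and Cyp11a1. The spread over the 9 samples was 44.7% of the mean, while counting error alone gives 2.80%. Between KO and WT the difference was -0.37 ± 0.39 (SE, log2; adjusted p = 0.709 by limma), and 0.02 without WT replicate 1. Het against WT differed by -0.73 ± 0.39, with adjusted p = 0.779 by limma, and by -0.34 without WT replicate 1.

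Hsd17b3 (chromosome 13 from 64058266 to 64089230, minus strand) makes testosterone from androstenedione. It was measured at 139.9, 130.2 and 137 normalized counts in WT, 93.5, 206 and 124 in Het and 153, 142 and 119.8 in KO samples. The lowest and the highest values were both Het samples, and the WT samples lay close together. The log2 difference was 0.02 ± 0.19 (SE) for KO against WT, with a 95% interval from -0.45 to 0.49 by limma. This was the narrowest interval of the 9 members tested in that comparison, and the adjusted p was 0.975.

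The receptor and the transcription factors were counted far less. Lhcgr (chromosome 17 from 88716481 to 88791990, minus strand) held 31 counts in all 9 samples together, with 0, 6.75 and 0 normalized counts in WT, 5.67, 0 and 0 in Het and 6.01, 6.77 and 3.57 in KO samples. It was below the level needed for a test in every comparison, and a difference was not detectable at this depth.

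Nr5a1 (chromosome 2 from 38692656 to 38714542, minus strand) was measured at 38.4, 29.9 and 30.9 normalized counts in WT, 28.3, 39.1 and 0 in Het and 20.6, 43.5 and 0 in KO samples. Het replicate 3 and KO replicate 3 were at 0, and the other 7 samples lay between 20.6 and 43.5. The log2 differences rest on those zeros, at -1.78 ± 1.38 (SE) for KO against WT, with adjusted p = 0.656 by limma, and -0.13 without KO replicate 3. For Het against WT the values were -1.68 ± 1.41, and 0.02 without Het replicate 3. The antisense gene Nr5a1os overlaps an exon of Nr5a1 and stood at 0 to 3.73 normalized counts. Whether counting used strand is not given in the sources used here.

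Nr0b1 (chromosome X from 86191764 to 86195947, plus strand, 2 exons) encodes DAX-1, a repressor found in Leydig and Sertoli cells. It was measured at 0, 22.2 and 31.9 normalized counts in WT, at 0 in all 3 Het samples and at 47.2, 65.8 and 42.9 in KO samples. Behind the KO values lay 55, 68 and 48 counts. All KO samples were above all WT and all Het samples, and 4 samples were at 0. Against the floor of 3 counts per sample, the mean of the KO samples was at least 17.7-fold higher than that of the Het samples. This bound covers counting error only, and not a sample at 0 such as WT replicate 1 beside the other WT samples. The fitted log2 difference of 5.70 depends on the pseudocount, and its adjusted p was 0.0364 by limma. With all Het samples at 0, Nr0b1 reached the level needed for a test through the KO samples alone, so that a difference was built into its being tested.

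The call of Nr0b1 in KO against Het did not hold under every method. It passed in 6 of 11 alternatives that kept all samples, with adjusted p from 5.37e-07 to 1.0. With edgeR and TMM factors on the recovered counts the adjusted p was 0.138. It was 0.0612 without Het replicate 1 and 0.145 without Het replicate 3 by limma, and without any 1 KO sample Nr0b1 was too low to be tested. KO against WT differed by 2.51 ± 1.32 (SE, log2), with adjusted p = 0.617 by limma, and by 0.92 without WT replicate 1. Of the 3460 genes with a mean between 15 and 40 normalized counts, 17.0% had at least 1 sample at 0, 1.01% had at least 4, and 0.35% (12 genes) had all samples of a genotype at 0. The summed level of 14 Sertoli cell markers, 12 of them tested, ranged from 5170 to 5788 in WT, 4370 to 6041 in Het and 4520 to 7870 in KO samples. Its part in the Nr0b1 values was not tested.

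Together, KO and WT samples differed past an adjusted p of 0.05 in 0 of 9 members tested, where the same limma rule called 5 of 14223 genes, or 0.0352%. At an unadjusted p under 0.05 the count was 0 of 9 members against 8.07% of all genes, and edgeR and DESeq2 also called 0 members. The 2 genotypes did not overlap for 1 of 9 members, Nr0b1, against 19.9% of all genes. Of the 9 members, 6 were higher and 3 lower in KO, with a median log2 difference of 0.24 against 0.02 over all genes tested. The members' median was 0.0418 without WT replicate 1 and lay between 0.0418 and 0.40 with any 1 sample left out. The 6 include Fdx1, whose sign turned without WT replicate 1.

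Het and WT samples differed in 0 of 8 members tested by adjusted p with limma, against 0% of 14216 genes. At an unadjusted p the counts were 0 of 8 members and 3.34% of genes, and edgeR and DESeq2 called 0 members. Non-overlapping genotypes occurred in 0 of 8 members and 13.3% of genes. Of the members, 4 of 8 were higher in Het, and the median log2 difference was -0.0007 for the members and 0.0069 for all genes.

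Between KO and Het samples the call was 1 of 9 members, Nr0b1, beside 0.0558% of 14343 genes. Nothing is read from that count, since Nr0b1 could be tested only through its KO values and the call was lost with edgeR, a pseudocount of 0.5, all 9 samples in 1 fit and a replicate block. The unadjusted test also passed 1 of 9 members, against 3.56% of genes. The genotypes did not overlap for 1 of 9 members and for 10% of genes. Of the members, 7 were higher in KO and 2 lower, with a median of 0.22 against -0.0027 over all genes. That median was 0.0423 without KO replicate 2 and lay between 0.0423 and 0.39 with any 1 sample left out. The comparisons share samples, so they are not independent of each other.

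**Figure D2:**
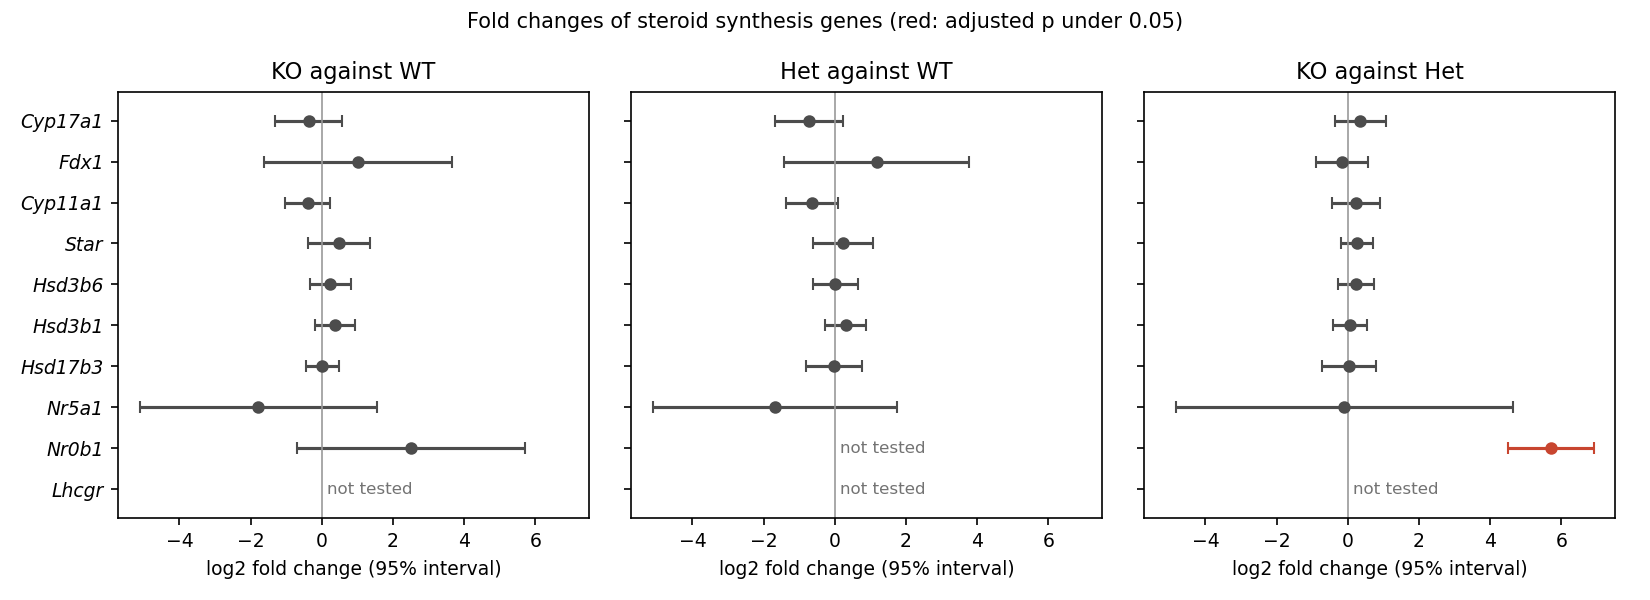
Log2 difference (horizontal axes, log2(value + 1) scale) of each gene in the 3 comparisons, with points for estimates and bars for 95% intervals by limma (n = 3 per genotype). Every interval but that of Nr0b1 in KO against Het includes 0, and intervals are widest for Nr5a1, Nr0b1 in KO against WT and, where WT samples enter, Fdx1.

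The summed level of the 10 genes was 3813, 3103 and 2843 normalized counts in WT, 2159, 3178 and 2336 in Het and 2901, 3625 and 2489 in KO samples. The genotypes overlapped, with the lowest sums in 2 Het samples. Cyp17a1 alone made up 32.7% to 69.0% of the sum, with the highest share in WT replicate 1, where the sum was also highest. In whole testis, fewer Leydig cells and less RNA per Leydig cell cannot be told apart. Other Leydig cell markers (Fabp3, Aldh1a1, Vcam1, Prlr, Pdgfra, Hpgds, Ren1 and Hsd11b1) summed to 1623 to 2330 normalized counts in WT, 1342 to 1903 in Het and 1728 to 2022 in KO samples. Of the 5 tested against WT and the 6 tested between KO and Het samples, 0 passed by limma's adjusted p. Of 5 markers of adrenal-like cells, Cyp11b1, Cyp11b2 and Mc2r were at 0 in all samples. Cyp21a1 stood at 3.87 to 5.36 normalized counts in KO samples and 0 to 2.12 in the others, and Akr1b7 was at 21.2 in WT replicate 2 and 0 to 1.93 elsewhere. Their levels were too low for a test.

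**Figure D3:**
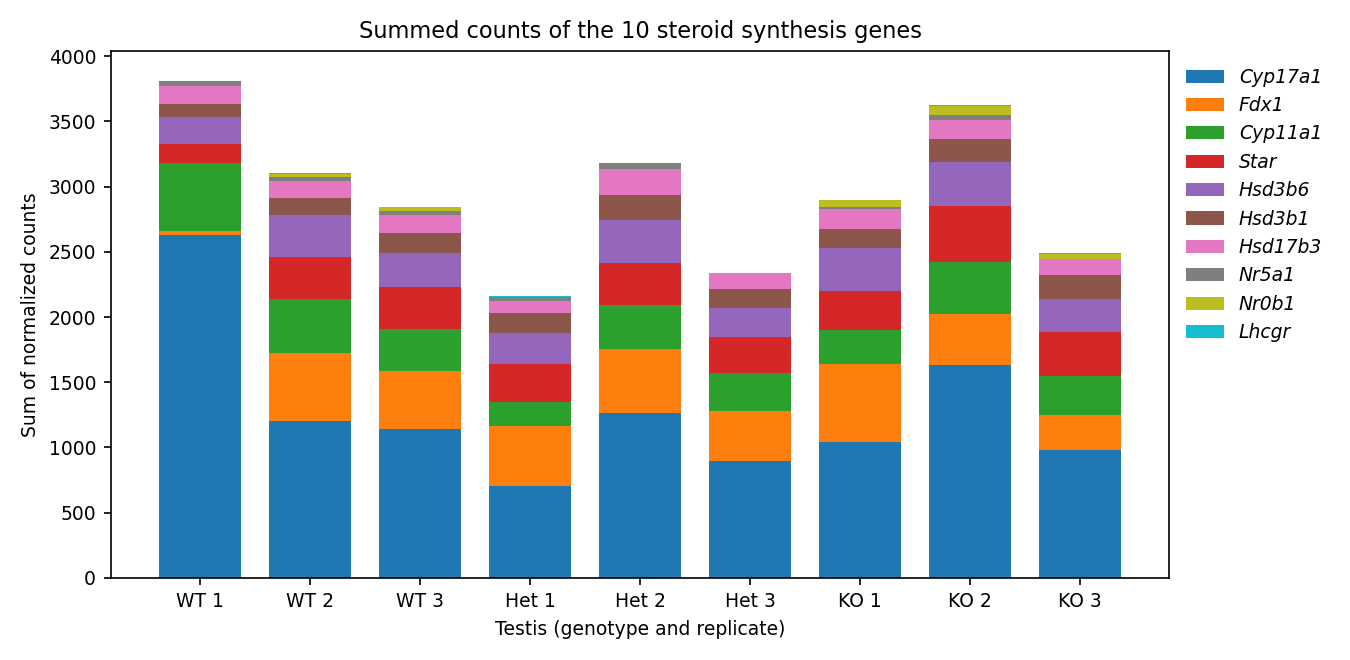
Sum of the normalized counts of the 10 genes in each testis (vertical axis, linear from 0), stacked by gene in order of mean level. Cyp17a1 is the largest part of every bar, and the sums run from 2159 in Het replicate 1 to 3813 in WT replicate 1.

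By mean normalized count the order was Cyp17a1 (1277), Fdx1 (399), Cyp11a1 (338), Star (306), Hsd3b6 (277), Hsd3b1 (152), Hsd17b3 (138), Nr5a1 (25.6), Nr0b1 (23.3) and Lhcgr (3.20). These are counts of 3′ reads, which do not scale with transcript length. Cyp17a1 was above Fdx1, Hsd3b6 above Hsd3b1, and Hsd17b3 above Nr5a1 in 9 of 9 samples. The other neighbours in this order changed places between samples. Cyp11a1 was above Star in 5 of 9, and Nr5a1 above Nr0b1 in 4 of 9.

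Across the 9 samples, the 7 genes counted in every sample gave 21 pairs, of which 13 had a positive correlation of log2 values. Cyp11a1 and Cyp17a1 gave r = 0.904 (exact permutation p = 0.00125, adjusted over 21 pairs 0.0263) and rho = 0.883 (exact p = 0.00308, adjusted 0.0646). Without the 2 samples farthest from the median of Cyp11a1, r was 0.746, and within genotypes it was 0.858. This pair alone passed the adjusted threshold by Pearson's r, and 0 pairs passed it by rho. Star and Hsd3b6 gave r = 0.749 (exact p = 0.00487, adjusted 0.0511) and rho = 0.717 (exact p = 0.0369, adjusted 0.303), with r = 0.505 without the 2 farthest samples. Star and Fdx1 gave r = 0.839 (exact p = 0.0845, adjusted 0.262) and rho = 0.183 (exact p = 0.644, adjusted 0.857), and r = -0.18 without the 2 farthest samples, so that relation rests on them. Star and Cyp17a1 gave r = -0.48 (exact p = 0.183, adjusted 0.34) and rho = 0.2 (exact p = 0.613, adjusted 0.857), and r = 0.639 without the 2 farthest samples. The values of a sample share its library and size factor.

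**Figure D4:**
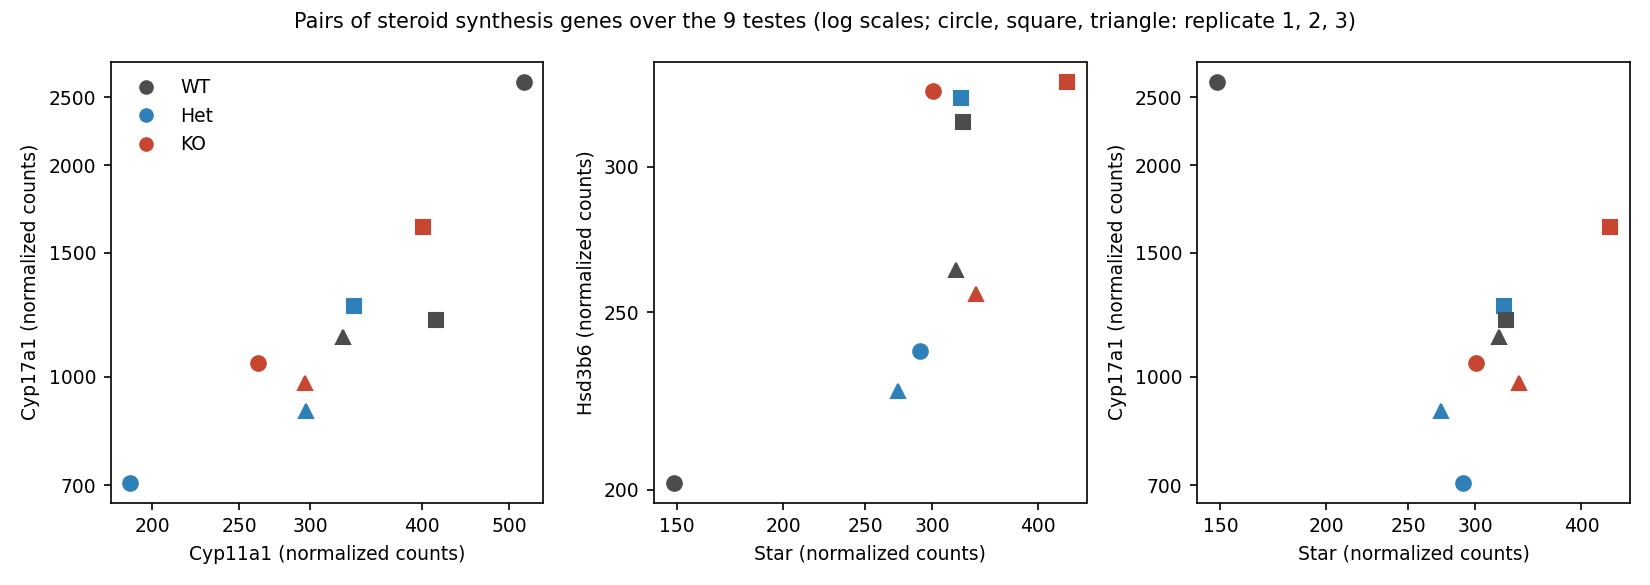
Normalized counts of 3 pairs of genes in the 9 testes, on log axes, with color for genotype and marker shape for replicate number. Cyp11a1 and Cyp17a1 rise together (r = 0.904), while WT replicate 1 lies apart from the other samples at low Star and high Cyp17a1.

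The genes most like the members over the 9 samples were sought by Pearson correlation of log2 values with the mean of the 9 members whose mean was at least 10 normalized counts. Among 14865 genes the highest r belonged to Gm10516 (0.938), Tmed3 (0.934), Slc30a9 (0.931), Efemp2 (0.913), Actr5 (0.906), Clybl (0.905), Sertad1 (0.905), Zbtb3 (0.903), Nxt1 (0.902) and Nudt1 (0.902). Of the members, each against the mean of the others, Hsd3b6 had 0.832 (rank 67), Star 0.584, and Cyp11a1 and Cyp17a1 0.102 and 0.034. That mean is set largely by the zeros of Nr0b1 and Nr5a1 and the low Fdx1 value of WT replicate 1, and the correlations are a description only.

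The rest of the pathway was described from gene lists, and 0 of their genes passed limma's adjusted p in any comparison. The RNA is of whole testis, and which cells the transcripts of these genes came from was not tested. In cholesterol supply, 16 of 16 genes were tested, and at an unadjusted p under 0.05 3 passed in KO against WT, 2 in Het against WT and 2 in KO against Het. Over all genes tested, the limma shares at that cut were 8.07%, 3.34% and 3.56% in the same order, for this list and those below. Lipe, the hormone-sensitive lipase that frees stored cholesterol, was measured at 428, 270.1 and 317 normalized counts in WT, 225, 285 and 301 in Het and 81.6, 53.2 and 129 in KO samples. All KO samples were below all others. For this gene and those below said not to overlap, the share over all genes was 19.9% in KO against WT and 10% in KO against Het. KO against WT differed by -1.998 ± 0.37 (SE, log2) with adjusted p = 0.402, and KO against Het by -1.69 ± 0.34 with adjusted p = 0.9, both by limma. Acbd3, a Golgi protein that also binds the mitochondrial cholesterol machinery, differed by -0.84 in KO against WT, with adjusted p = 0.61 by limma and no overlap. Abca1, a cholesterol exporter, differed by 1.15 with adjusted p = 0.61.

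In cholesterol synthesis 18 of 20 genes were tested and 0 passed even at an unadjusted p, with medians of -0.09 in KO against WT, -0.22 in Het against WT and 0.09 in KO against Het. Fdft1 (squalene synthase) and Cyp51 (lanosterol demethylase) each differed by -0.41 in KO against WT, with no overlap, adjusted p = 0.613 and 0.614 by limma. Among electron transfer partners 5 of 6 genes were tested and 0 passed. Fdxr, the reductase that feeds FDX1, was highest in WT replicate 1 at 215 normalized counts and lay between 75.6 and 129 in the other 8 samples. In that sample Fdx1 was at its lowest. Of 23 other steroid enzymes 9 were tested and 0 passed. Cyp19a1, the aromatase, stood at 11.6 to 32.2 normalized counts, and Srd5a2 was at 0 in all samples.

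Of 23 genes of luteinizing hormone signalling and transcription control 19 were tested, and 15 of them were higher in KO than in WT, with a median of 0.52 and 1 past an unadjusted p. Over all genes tested, 51.4% were higher in KO. Het against WT also gave 15 of 19, with a median of 0.34, and KO against Het gave 8 of 19, with a median of -0.16. Without WT replicate 1 the counts were 11 of 19 in KO against WT, with a median of 0.0526, and 13 of 19 in Het against WT, with a median of 0.18. In WT replicate 1 Gnas, which encodes the stimulatory G protein, was at 50.8 normalized counts against 634 and 664 in the other WT samples. Creb1, a transcription factor activated by cyclic AMP, was measured at 78.0, 86.8 and 78.2 normalized counts in WT, 51.0, 88.5 and 97.4 in Het and 134, 167 and 152 in KO samples. The KO samples were above all others. KO against WT differed by 0.89 ± 0.20 (SE, log2) with adjusted p = 0.529, and KO against Het by 0.97 ± 0.28 with adjusted p = 0.973, both by limma. Nr4a1, an orphan receptor induced in Leydig cells by luteinizing hormone, was lower in all KO than in all Het samples, at -0.80 ± 0.25 with adjusted p = 0.973 by limma. Among the Leydig cell markers Prlr, the prolactin receptor, differed by -1.53 ± 0.55 in KO against WT (adjusted p = 0.61 by limma) and by -1.93 ± 0.74 in Het against WT (adjusted p = 0.779). The genotypes did not overlap for Prlr in either comparison, and the share over all genes was 13.3% in Het against WT. Pdgfra, a growth factor receptor of Leydig cells and their precursors, differed the other way, by 1.39 ± 0.59 in KO against WT with no overlap (adjusted p = 0.61 by limma) and by 1.23 ± 0.63 in Het against WT (adjusted p = 0.779). Its value in WT replicate 1, 3.71 normalized counts, was at the floor of 3 counts.

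Testosterone was not measured in these data. Of 6 androgen-responsive Sertoli cell genes, 6 were tested and 0 passed in any comparison by limma's adjusted p, with 1 past an unadjusted p in KO against WT. Cldn3, a tight junction gene, was that gene, at -0.67 ± 0.22 (SE, log2) with adjusted p = 0.61. Rhox5 differed the other way in KO against WT, by 1.45 ± 0.95 with adjusted p = 0.643 by limma. It was at 16.1 normalized counts in WT replicate 1. Of the 6 genes, 2 were higher and 4 lower in KO than in WT. Their sums were 489 to 550 normalized counts in WT, 287 to 567 in Het and 487 to 717 in KO samples, and they overlapped. The 4 elongating spermatid markers summed to 233289 to 249362 normalized counts in WT, 179063 to 214894 in Het and 123388 to 199672 in KO samples. These sums did not overlap between WT and either other genotype. Prm1 alone did, at 84544 in WT replicate 1, 103420 in Het replicate 3 and 93468 in KO replicate 3. Of the 4, 0 passed limma's adjusted p. At an unadjusted p under 0.05, 2 passed in KO against WT and 2 in Het against WT, beside 8.07% and 3.34% of all genes. The 10 macrophage markers summed to 327 to 490.1 in WT, 265 to 402 in Het and 348 to 419.9 in KO samples, which overlapped. The part of the spermatid marker levels in the members' values was not tested.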

How the data were processed

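Testis RNA of 9 mouse samples was sequenced as QuantSeq 3′ libraries. Per the submitters' processing notes and the methods of the study, the authors used Trim Galore 0.4.5, HISAT2 2.1 with GRCm38, StringTie 1.3.3 and DESeq2, and deposited gene-level signal: each count divided by the size factor of its sample. All nonzero values were whole multiples of 1 step (tolerance 1e-06), so the counts were recovered. StringTie derives counts from coverage and an assumed read length, so 1 count need not be 1 read. Counts on genes ranged from 3375546 to 4287335, and the floor of 3 counts covers counting error only.

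The main test was limma 3.58.1 (R 4.3.3, eBayes with a trend) on log2(value + 1), two-sided, over all genes that reached 10 normalized counts in 3 or more of 6 samples, with Benjamini-Hochberg adjustment and a threshold of 0.05. On the recovered counts of KO and WT, edgeR 4.0.16 called 5 genes and DESeq2 1.42.0 called 134. The members and gene lists were chosen with earlier results of these data known. All members could be named, and of the lists those with an adjusted p under 0.05, the 3 lowest unadjusted p of a list in a comparison, or a defining marker. Others named were chosen after their values were seen. Alternatives were other tests, scalings, pseudocounts, filters, 1 fit of all samples, a replicate block and each replicate left out. Leaving a sample out of the counts of gene lists, and Ldhc out of the spermatocyte markers, was added after seeing the data. Functions were tested on simulated data. Python 3.11.15, scipy 1.17.1 and matplotlib 3.10.9 were used, with GENCODE annotation on GRCm38. Insl3 and 4 further list genes were not analysed here.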

Additional observations from a re-analysis of the deposited data

How the results depend on the processing

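Over all genes, the 5 calls in KO against WT became 134 with DESeq2, 10 with a filter value of 1, 3 with all 9 samples in 1 fit, and 0 to 49 with a replicate left out (49 without WT replicate 1, 11 without KO replicate 1). The 0 calls in Het against WT became 35 with DESeq2, 1 with TMM scaling, 2 with a pseudocount of 5, 3 with a filter value of 1, no filter or all 9 samples in 1 fit, and 0 to 3 with a replicate left out (3 without Het replicate 2). The 8 calls in KO against Het became 47 with DESeq2, 5 with edgeR and RLE factors, 4 with all 9 samples in 1 fit, and 0 to 39 with a replicate left out (39 without Het replicate 2). The cause of these shifts was not tested. Members called in KO against Het fell from 1 to 0 with edgeR (TMM or RLE factors), a pseudocount of 0.5 and all 9 samples in 1 fit, and were 0 to 1 with a replicate left out. With replicate numbers as a block, genes called were 0 in KO against WT, 0 in Het against WT and 0 in KO against Het, and 0 members were called. Same-numbered samples correlated at -0.14 to 0.19 in their deviations from genotype means, so the numbers were not taken as pairing. Of 286 values of single members that kept every sample, 7 changed sign, all of Hsd17b3: in Het against WT it was 0.0561 with DESeq2, 0.0818 and 0.0659 with edgeR (TMM, RLE) and 0.13 with scaling by library total, and in KO against Het -0.0291 with DESeq2, -0.0052 and -0.0249 with edgeR (TMM, RLE). Scaling by library total moved the median of all genes to 0.22 in KO against WT and 0.16 in Het against WT, and the members' median to 0.45 and 0.15. With a replicate left out, signs changed within these ranges: in KO against WT, Cyp17a1 -0.60 to 0.0205, Hsd17b3 -0.0557 to 0.12, Fdx1 -0.27 to 1.74 and the log2 ratio of Hsd3b6 to Hsd3b1 -0.30 to 0.0543. In Het against WT the ranges were -0.13 to 0.43 for Star, -0.15 to 0.17 for Hsd3b6, -0.33 to 0.23 for Hsd17b3, -2.64 to 0.0189 for Nr5a1 and -0.12 to 1.89 for Fdx1. In KO against Het they were -0.0041 to 0.41 for Cyp11a1, -0.0274 to 0.19 for Hsd3b1, -0.21 to 0.35 for Hsd17b3, -1.80 to 1.56 for Nr5a1, -0.44 to 0.12 for Fdx1 and -0.0099 to 0.35 for the ratio. Lhcgr, Nr5a1 and Nr0b1 had the fewest counts of the members, with 31, 235 and 227 over all samples. For Nr5a1 and Nr0b1 the spread over the 9 samples was 62.5% and 107% of the mean. Counting error alone gives 19.6% and 19.9%.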

Other observations

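Peritubular myoid cell markers, contractile genes of the cells around the tubules, were lower in KO than in Het samples in 7 of 7 genes tested, with a median log2 difference of -0.49 against -0.0027 over all genes, and 0 passed limma's adjusted p. Without Het replicate 1, a count added after seeing the data, 4 of 7 were lower, with a median of -0.0061, and Acta2, Cnn1 and Des were not. Cnn1 was at 105 normalized counts in Het replicate 1 and between 18.6 and 49.5 in the other 8 samples. Actg2 differed by -0.49 ± 0.19 (SE) with adjusted p = 0.973. Their sums were 780.2 to 1002 normalized counts in WT, 832 to 1403 in Het and 625 to 773 in KO samples, so that KO samples lay below all others. The Sertoli cell marker Wt1 was at 9.91, 17.4 and 29.0 normalized counts in WT, 168, 179.7 and 116 in Het and 155, 199 and 32.2 in KO samples. Its Het against WT difference was 3.07 ± 0.42 (SE, log2) with adjusted p = 0.544 by limma. Of the 12 Sertoli cell markers tested in that comparison, 5 were higher and 7 lower in Het, with a median of -0.17.

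Other genes, chosen after their values were seen, were nearly absent from or at 0 in some samples. Sult1e1, an estrogen sulfotransferase of Leydig cells, was at 6.19 normalized counts in WT replicate 1 and between 85.7 and 134 in the other 8 samples. Sqle, a cholesterol synthesis enzyme, was at 9.91 in WT replicate 1 and 17.0 in Het replicate 1 and between 196 and 277 in the others. Rhox5, an androgen-responsive Sertoli cell gene, was at 16.1 and 11.3 in the same samples and between 163 and 273 in the others. Gata4, an activator of steroid synthesis genes, was at 0 in WT replicate 1, Het replicates 1 and 3 and KO replicate 2, and between 21.2 and 34.8 in the other 5 samples. Of those 4 samples, WT replicate 1 and Het replicates 1 and 3 were also at 0 for Nr0b1, and KO replicate 2 was not. Het replicate 3 was also at 0 for Nr5a1. Gata4 was counted in Het replicate 2, at 0 for Nr0b1, and in KO replicate 3, at 0 for Nr5a1.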
